A study of Saccharomyces cerevisiae with 6 samples.

Results

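The genes described here encode the machinery that moves proteins and membrane between the endoplasmic reticulum (ER) and the Golgi of the budding yeast Saccharomyces cerevisiae. They were chosen by function, with earlier results of these data known, as 51 named genes for vesicle coats, cargo receptors, Rab GTPases, SNAREs and tethers. Each of the 51 had exactly 1 probe set among the 5498 tested probe sets, which stand for 5449 genes. All 51 lay above array background on every array, so no member was lost to a filter on low values, and no member's probe set was of the kind that can bind several transcripts.

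Total RNA was measured on 6 Affymetrix expression arrays, 3 of a pmr1 deletion strain and 3 of its wild type. The deletion strain, NGY051, is the laboratory strain BY4741 in which a kan marker replaces PMR1, and the labels name the parental background both BY4147 and BY4741. The wild type is given as MAT a with ura3, leu2, his3 and met15 deleted, and cells of both strains were taken in exponential phase from rich YPAD medium with 5 mM calcium chloride added. The deletion is 1 strain, added calcium is common to both groups, and the labels do not say whether replicates were separate cultures. Each limma p-value rests on the spread among the 3 samples within each group, pooled and drawn towards the spread typical of all tested probe sets. Part or all of that spread may be technical. Values are the deposited log2 expression values, and a difference of 1 on this scale is a doubling.

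As background, proteins leave the ER in vesicles coated by COPII and are brought back from the Golgi in vesicles coated by COPI. Transmembrane receptors sort cargo into these vesicles, Rab GTPases and tethers catch an arriving vesicle, and SNARE proteins fuse it with the target membrane. PMR1 encodes the Golgi pump that fills this pathway with calcium and manganese, and strains without it are known for shortened outer sugar chains on secreted glycoproteins.

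Array medians over the tested probe sets lay between 10.34 and 10.39. PMR1 (YGL167C) had values of 2.79, 3.45 and 3.16 in the deletion, against 11.81, 11.79 and 11.84 in the wild type, and it was below array background on 3 of 3 deletion arrays, which puts it at least 186-fold lower (limma adjusted p = 3.43e-07). The MAT a label was checked against mating-type genes. The a-cell receptor gene STE2 had values of 12.6 to 12.8 in the deletion and 13.1 to 13.2 in the wild type, while the alpha-factor gene MF(ALPHA)1 was below background on all 6 arrays. The other 3 alpha-cell genes, STE3, MF(ALPHA)2 and SAG1, were above background on all arrays. In the deletion 4 of 6 a-cell genes fell and 1 rose, and 3 of 4 alpha-cell genes rose and 0 fell (limma, with 3 and 0 at an unadjusted p under 0.05). Of all tested probe sets 17.5% rose and 11.7% fell by limma. The part of these mating-type changes in the members' changes was not tested. For the control transcripts ACT1, SRB4 and SPT15, the difference between 3' and 5' probe sets, a measure of RNA integrity, overlapped between the groups. Its means were 0.09, 2.14 and 1.42 in the deletion and 0.13, 2.00 and 1.44 in the wild type. The gap for SRB4 is similar in size to the changes of called members, and its part in them was not tested.

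Among the 51 genes the changes were small. SFB2, which encodes a cargo adaptor of COPII, had the largest, 1.18-fold higher in the deletion, and 18.9% of all tested probe sets moved further than that. At an adjusted p under 0.05 by limma, 10 members rose and 2 fell in the deletion, together 23.5% of the 51 against 29.2% of all tested probe sets. The members' shares were 19.6% higher and 3.92% lower, against 17.5% and 11.7% of all tested probe sets, so the share that was higher is near the background. The median log2 change of the members was 0.07, against 0.0095 over all tested probe sets, and 37 of 51 changes were above 0 (33 with quantile scaling), against 53.2% of all tested probe sets. The groups did not overlap for 20 members that were higher and 4 that were lower in the deletion, together 47.1%. Of all tested probe sets 27.4% were apart upwards and 19.3% downwards, together 46.7%. Without adjustment, 18 members (35.3%) had a higher and 3 (5.88%) a lower value with p under 0.05, against 24.4% and 17.4% of all tested probe sets. For each role and list below, the background of the limma counts is 17.5% higher and 11.7% lower. For the unadjusted counts it is 24.4% and 17.4%. In roles of 4 to 9 members a single rise is 11.1% to 25% of the role, which is near the 17.5%.

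These counts moved when 1 array was left out, which also left fewer arrays for the test. Without deletion replicates 1, 2 and 3 in turn, 1, 4 and 4 members were higher, and without wild-type replicates 1, 2 and 3, 1, 14 and 2 were. The share of all tested probe sets that was higher moved too, from 17.5% with all arrays. It was 10.9%, 12.9% and 13.1% without deletion replicates 1, 2 and 3, and 11.5%, 18.9% and 12.5% without wild-type replicates 1, 2 and 3. The count of lower members was 0 to 3 over the same 6 fits (2 to 4 at an unadjusted p under 0.05 by limma). In these fits 6.78% to 11.4% of all tested probe sets were lower at the adjusted threshold. Deletion replicate 2 had the highest deletion value for 31 of the 51 members and wild-type replicate 2 the highest wild-type value for 27. The same count was not made over all tested probe sets. Their median, after each probe set was centred on its mean, was also highest on these arrays. It was 0.0024, 0.037 and -0.013 on deletion replicates 1, 2 and 3, and -0.0096, -0.0042 and -0.0070 on wild-type replicates 1, 2 and 3. With each array centred on its median the counts were 11 higher and 3 lower, against 18.1% and 13.4% of all tested probe sets. With quantile or cyclic loess scaling they were 8 and 3. Of all tested probe sets 17.4% were higher and 14.4% lower with quantile scaling, and 16.7% and 15.1% with cyclic loess scaling. SFB2 alone among the 12 called members kept its call in all 16 alternative settings, and each of the other 11 lost it without at least 1 array and when all probe sets of the array were tested together.

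The 95% interval of each gene's own change lay within a factor of 1.25 in either direction for 49 of the 51 members, and within a factor of 1.4 for all 51. Over all tested probe sets 73% and 88.3% had intervals inside these limits. Whether an interval lies inside depends on the size of the change as well as on the width of the interval.

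**Figure D1:**
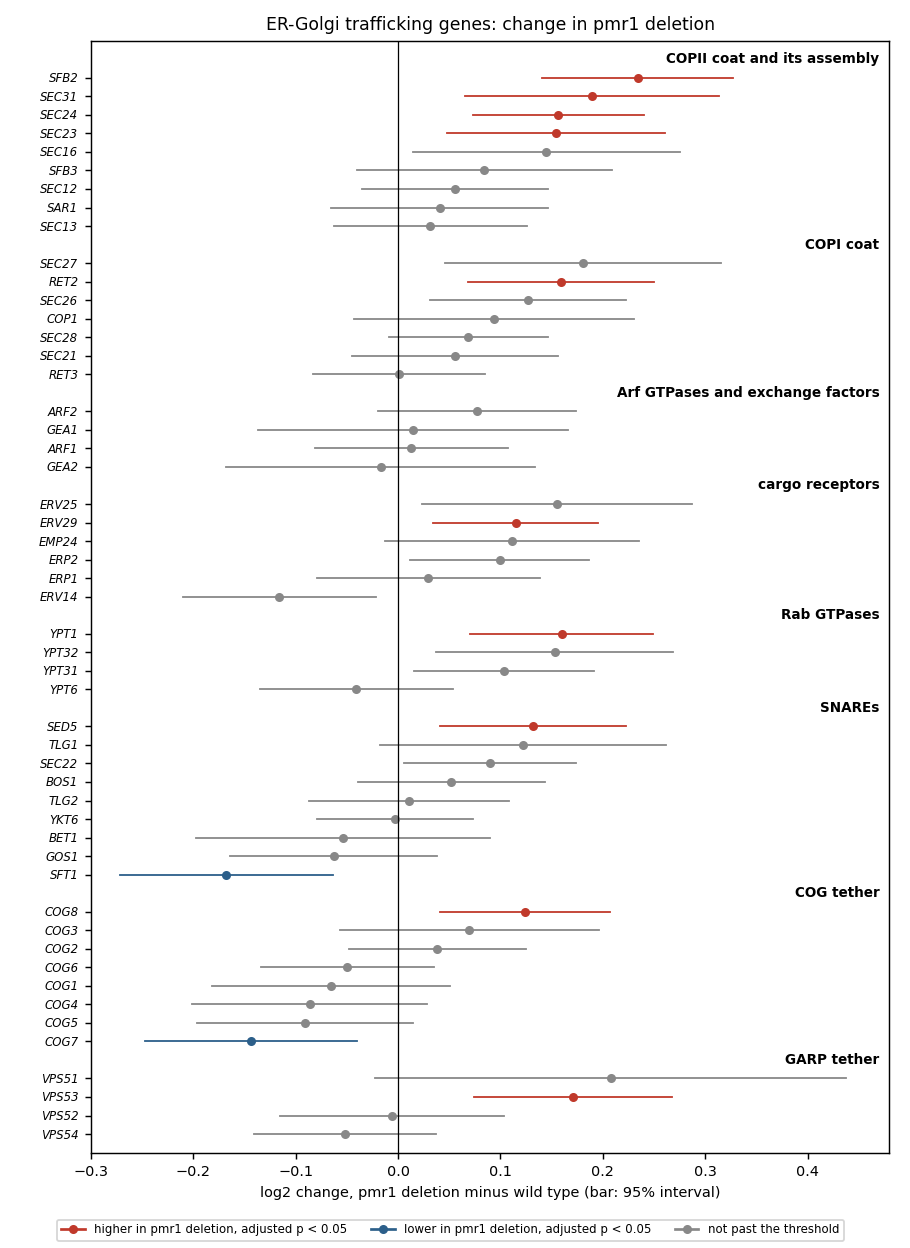
Log2 change (x axis, pmr1 deletion minus wild type) of each of the 51 members, grouped by role, with bars for the 95% interval of the limma fit on 3 arrays against 3. Red marks the 10 members that were higher and blue the 2 that were lower past an adjusted p of 0.05; all 9 genes of the COPII group lie right of 0.

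Of the COPII genes 4 of 9 rose (44.4%, against 17.5% of all tested probe sets) and 0 fell by limma (5 and 0 at an unadjusted p under 0.05). Their median log2 change was 0.14. All 9 changes were above 0, also with each of the 3 scalings, with array weights and without any 1 array. The medians in those fits were 0.11 to 0.18. The other alternatives could not move these log2 changes. The count of 4 changed when any array was left out: it was 1 without deletion replicate 1 or 3 or wild-type replicate 1 or 3, 2 without deletion replicate 2, and 5 without wild-type replicate 2. SFB2 (YNL049C) had values of 10.34, 10.34 and 10.33 in the deletion and 10.10, 10.16 and 10.04 in the wild type. The 3 deletion values nearly coincided and lay above every wild-type value (log2 change 0.23, SE 0.039, adjusted p = 0.00555). SEC24 (YIL109C), the main cargo adaptor of the coat and a paralog of SFB2, had 11.87, 11.89 and 11.89 in the deletion, against 11.69, 11.77 and 11.72 in the wild type (log2 change 0.16, SE 0.035, adjusted p = 0.0168). SEC23 (YPR181C), which pairs with Sec24 in the inner coat and stimulates the GTPase Sar1, had 12.27, 12.26 and 12.32 in the deletion and 12.13, 12.20 and 12.06 in the wild type. Its groups did not overlap, and its log2 change was 0.15 (SE 0.045, adjusted p = 0.0414).

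SEC31 (YDL195W), a rod of the outer COPII cage, had 11.14, 11.19 and 11.13 in the deletion, against 10.91, 11.07 and 10.91 in the wild type (log2 change 0.19, SE 0.052, adjusted p = 0.0351). Wild-type replicate 2 stood above the mean of the other wild-type arrays for this gene by 0.16. SEC13, its partner in the cage and also a subunit of the nuclear pore, had a log2 change of 0.03 (95% interval -0.06 to 0.13), which did not pass the test. Wild-type replicate 2 stood higher still, by 0.18, for SEC16, the scaffold of ER exit sites, whose values were 10.38, 10.37 and 10.34 in the deletion and 10.18, 10.34 and 10.14 in the wild type (log2 change 0.14, adjusted p = 0.0909). The GTPase gene SAR1, its exchange factor SEC12 and the third Sec24 relative SFB3, an adaptor for the plasma membrane proton pump, had log2 changes of 0.04, 0.06 and 0.08 with overlapping groups.

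**Figure D2:**
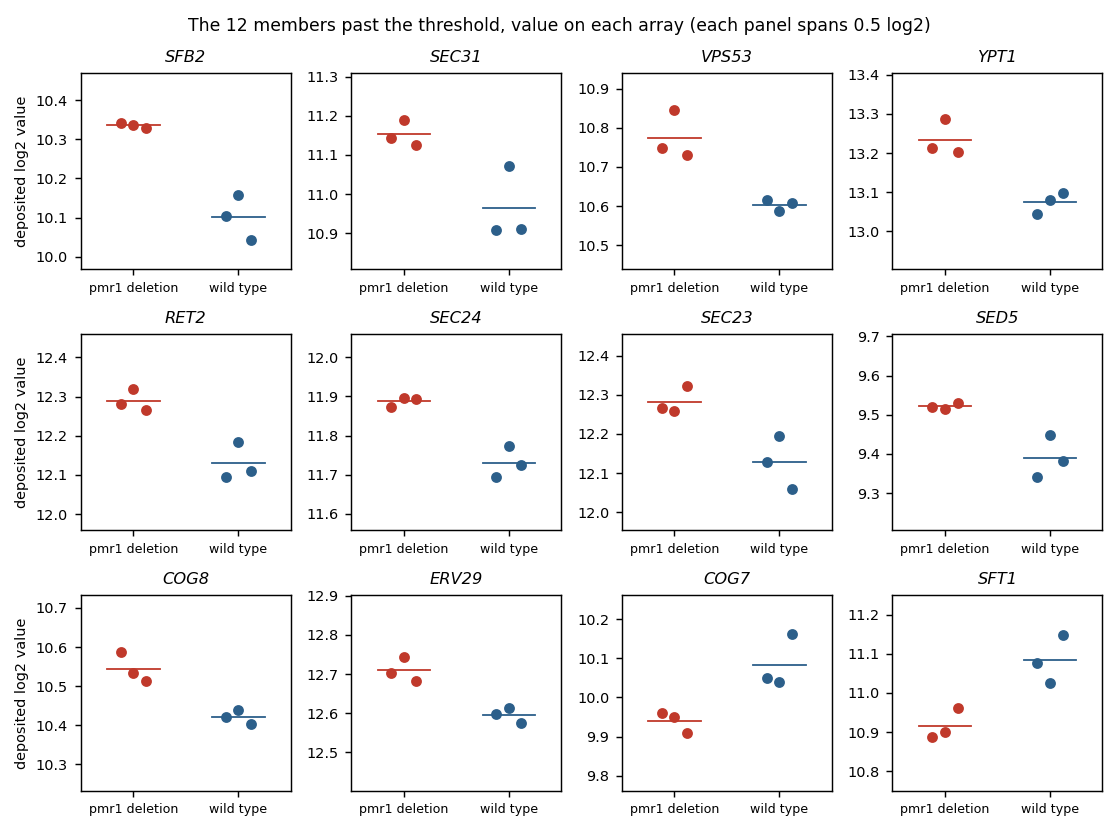
Deposited log2 value (y axis) of the 12 members past the threshold on each of the 3 pmr1 deletion arrays (left, red) and 3 wild-type arrays (right, blue), with lines at the group means. Every panel spans 0.5 on the log2 scale; the groups do not overlap in any of the 12, and the largest gap between means is 0.23 for SFB2.

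Of 7 COPI subunits 1 rose (14.3%, against 17.5% of all tested probe sets) and 0 fell by limma (3 and 0 at an unadjusted p under 0.05), and the median log2 change was 0.09. RET2 (YFR051C), the delta subunit, had 12.28, 12.32 and 12.27 in the deletion, against 12.09, 12.19 and 12.11 in the wild type, and rose by 0.16 (SE 0.039, adjusted p = 0.0222). SEC27, the beta-prime subunit, had the largest change of the coat but missed the threshold, which it passed in 4 of 16 alternatives: 12.21, 12.31 and 12.32 in the deletion and 11.99, 12.17 and 12.13 in the wild type (log2 change 0.18, SE 0.057, adjusted p = 0.0532). Its groups did not overlap, nor did those of the beta subunit SEC26 (log2 change 0.13, adjusted p = 0.0541). At the other end RET3, the zeta subunit, differed by 0.00065 between group means (95% interval -0.08 to 0.08). COP1, SEC21 and SEC28, the alpha, gamma and epsilon subunits, had changes of 0.06 to 0.09, none past the threshold. The groups of SEC28 did not overlap, and those of COP1 and SEC21 did.

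The small GTPases that recruit COPI, and their exchange factors, gave no call (0 higher and 0 lower by limma, 0 and 0 at an unadjusted p under 0.05). ARF1 had 13.74, 13.82 and 13.77 in the deletion and 13.78, 13.80 and 13.71 in the wild type, and its paralog ARF2 had 12.59, 12.62 and 12.61 in the deletion and 12.51, 12.60 and 12.48 in the wild type. Both pairs of groups overlapped, with log2 changes of 0.01 (95% interval -0.08 to 0.11) and 0.08 (-0.02 to 0.17). GEA1 and GEA2, the exchange factors of the early Golgi, had changes of 0.01 and -0.02, and the direction of ARF1, GEA1 and GEA2 turned in some alternatives.

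Of 6 cargo receptors 1 rose and 0 fell by limma (3 and 1 at an unadjusted p under 0.05). ERV29 (YGR284C), the receptor that packs soluble secretory proteins such as pro-alpha-factor, had 12.70, 12.74 and 12.68 in the deletion, against 12.60, 12.61 and 12.57 in the wild type (log2 change 0.11, SE 0.034, adjusted p = 0.0442). ERV14, the receptor for many transmembrane proteins, was the one receptor with a negative change: 12.85, 12.91 and 12.85 in the deletion and 13.02, 12.93 and 13.00 in the wild type (log2 change -0.12, adjusted p = 0.0676). The p24 proteins form complexes that carry GPI-anchored cargo, and none of the 4 members among them passed the test. ERV25 had 13.09, 13.25 and 13.09 in the deletion and 13.03, 13.01 and 12.93 in the wild type (log2 change 0.16, adjusted p = 0.0771), and EMP24 had 12.87, 13.01 and 12.88 in the deletion and 12.86, 12.74 and 12.82 in the wild type (log2 change 0.11, adjusted p = 0.155). For both, deletion replicate 2 stood apart above the other deletion arrays. The p24 genes ERP2 and ERP1 had changes of 0.10 and 0.03, and only those of ERP1 had overlapping groups.

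Among the 4 Rab GTPases, 1 rose and 0 fell by limma (3 and 0 at an unadjusted p under 0.05). YPT1 (YFL038C), the Rab of ER-to-Golgi transport, had 13.21, 13.29 and 13.20 in the deletion, against 13.04, 13.08 and 13.10 in the wild type, and rose by 0.16 (SE 0.038, adjusted p = 0.0207). It lost its call in 3 of 16 alternatives, the fewest after SFB2. YPT31 and YPT32, paralogs that act in exit from the late Golgi, had changes of 0.10 (adjusted p = 0.0774) and 0.15 (adjusted p = 0.055) with groups that did not overlap. YPT31 passed the threshold in 2 and YPT32 in 7 of the 16 alternatives. YPT6, the Rab of retrograde transport from endosomes to the Golgi, had 11.05, 10.99 and 11.10 in the deletion and 11.09, 11.08 and 11.10 in the wild type, a change of -0.04 (95% interval -0.14 to 0.05).

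SNARE genes were split. Of 9, 1 rose and 1 fell by limma (2 and 1 at an unadjusted p under 0.05), and their median log2 change was 0.01. SED5 (YLR026C), the syntaxin of the early Golgi, had 9.52, 9.51 and 9.53 in the deletion and 9.34, 9.45 and 9.38 in the wild type, and rose by 0.13 (SE 0.039, adjusted p = 0.0416). SFT1 (YKL006C-A), a SNARE of transport within the Golgi that forms a complex with Sed5, went the other way. It had 10.89, 10.90 and 10.96 in the deletion, against 11.08, 11.03 and 11.15 in the wild type, and fell by 0.17 (SE 0.044, adjusted p = 0.029). GOS1, its partner in that complex, had a change of -0.06 with overlapping groups.

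The ER-to-Golgi SNAREs BET1, BOS1 and SEC22 had changes of -0.05, 0.05 and 0.09, and none passed the test. The groups of SEC22 did not overlap, and those of BET1 and BOS1 did. YKT6, a lipid-anchored SNARE used at several membranes, had 12.63, 12.64 and 12.61 in the deletion and 12.64, 12.64 and 12.61 in the wild type, so its values nearly coincided (95% interval of the change -0.08 to 0.07). TLG1 and TLG2, SNAREs of endosomes and the late Golgi, had changes of 0.12 and 0.01 with overlapping groups.

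The COG complex, a tether for vesicles that recycle Golgi enzymes, had 1 subunit higher and 1 lower of 8 by limma (1 and 1 at an unadjusted p under 0.05). Its median change was -0.06. With each of the 3 scalings, with array weights and without any 1 array it stayed below 0, from -0.08 to -0.03. The other alternatives could not move it. COG7 (YGL005C) had 9.96, 9.95 and 9.91 in the deletion, against 10.05, 10.04 and 10.16 in the wild type, and fell by 0.14 (SE 0.044, adjusted p = 0.047). COG8 (YML071C), from the same lobe of the complex, had 10.59, 10.53 and 10.51 in the deletion and 10.42, 10.44 and 10.40 in the wild type, and rose by 0.12 (SE 0.035, adjusted p = 0.0377). COG7 lost its call in 7 and COG8 in 9 of the 16 alternatives. COG5, with non-overlapping groups, had a change of -0.09 (adjusted p = 0.171), and COG1, COG2, COG3, COG4 and COG6 lay between -0.09 and 0.07 with overlapping groups.

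GARP tethers vesicles from endosomes at the late Golgi, and 1 of its 4 subunit genes rose and 0 fell by limma (1 and 0 at an unadjusted p under 0.05). VPS53 (YJL029C) had 10.75, 10.85 and 10.73 in the deletion, against 10.62, 10.59 and 10.61 in the wild type, and rose by 0.17 (SE 0.041, adjusted p = 0.0216). VPS51 had the second largest change of all members and the widest interval. Its values were 7.61, 7.43 and 7.56 in the deletion and 7.13, 7.51 and 7.35 in the wild type, with overlapping groups and a log2 change of 0.21 (95% interval -0.02 to 0.44, adjusted p = 0.154). It passed the threshold with array weights (log2 change 0.35, adjusted p = 0.00903) and without wild-type replicate 2, the highest of its wild-type values (log2 change 0.30, adjusted p = 0.0404). VPS52 and VPS54 had changes of -0.0058 and -0.05.

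Paralogs were compared by the log2 ratio of their probe sets on each array, where only the change of the ratio between strains can be read. Over 5 pairs, 3 arrays against 3 cannot give an exact permutation p below 0.1, and no pair had an adjusted p below 0.25. The ratio of SEC24 to SFB2 was 1.53, 1.56 and 1.56 in the deletion, against 1.59, 1.62 and 1.68 in the wild type. The groups did not overlap, and the ratio was 0.08 lower in the deletion (two-sided exact p = 0.1, adjusted 0.25). The ratio of ARF1 to ARF2 was 1.15, 1.19 and 1.16 in the deletion and 1.27, 1.20 and 1.23 in the wild type, also without overlap and 0.06 lower in the deletion (exact p = 0.1, adjusted 0.25). For SEC24 to SFB3, GEA1 to GEA2 and YPT31 to YPT32 the groups overlapped, with ratio changes of 0.07, 0.03 and -0.05.

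**Figure D3:**
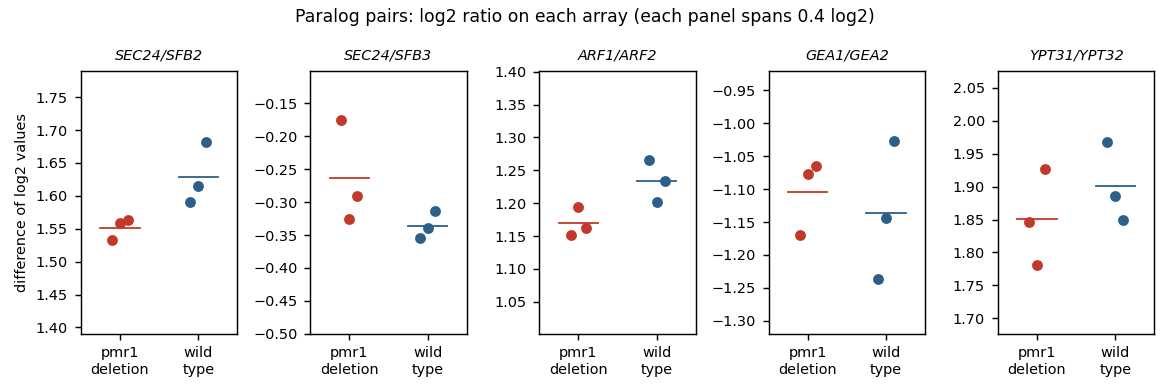
Difference of the log2 values of 2 paralogs (y axis) on each pmr1 deletion array (left, red) and wild-type array (right, blue), with lines at the group means; every panel spans 0.4. The groups are apart for SEC24/SFB2 and ARF1/ARF2 and overlap for the other 3 pairs.

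Other genes of the pathway, 87 measured of 88 listed, held 16 that rose (18.4%) and 1 that fell (1.15%) by limma, with a median log2 change of 0.05. Of all tested probe sets 17.5% rose and 11.7% fell. The lists of these other genes too were chosen with earlier results of these data known. The 16 became 8, 11 and 9 without deletion replicates 1, 2 and 3, and 9, 17 and 11 without wild-type replicates 1, 2 and 3. The count was 28 with array weights, 10 with the replicate block and 5 when all probe sets of the array were tested. Of all probe sets in those tests 26.1%, 14.6% and 5.01% were higher. Among the 87 genes, 6 past the threshold moved further than any of the 51 members. The largest was GGA1, an adaptor for clathrin at the late Golgi, with 9.59, 9.62 and 9.64 in the deletion and 9.09, 9.24 and 9.18 in the wild type (log2 change 0.44, SE 0.046, adjusted p = 0.00074). EMP46, a lectin-like receptor for glycoproteins leaving the ER, had 8.11, 8.15 and 8.08 in the deletion, against 7.66, 7.73 and 7.67 in the wild type (log2 change 0.43, SE 0.038, adjusted p = 0.000417). CHC1, the clathrin heavy chain, rose by 0.42 (SE 0.053, adjusted p = 0.00187) and YIP3, a membrane protein that binds Rab GTPases, by 0.38 (SE 0.034, adjusted p = 0.000398). The groups of these 4 genes were apart, and their calls held in all 16 alternatives.

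SEC18, the ATPase that takes spent SNARE complexes apart, rose by 0.31 (SE 0.053, adjusted p = 0.00596), and SLY1, which binds Sed5 and guards SNARE assembly, rose by 0.20 (SE 0.04, adjusted p = 0.0124). With VTI1 (0.15) and VPS45 these made 4 rises and 0 falls among 6 SNARE partners and fusion factors by limma (4 and 0 at an unadjusted p under 0.05). That is 66.7% higher, against 17.5% of all tested probe sets. VTI1 encodes a SNARE itself but was not listed among the members. In the TRAPP tethers, which activate Ypt1 and Ypt31, 2 of 11 rose and 1 fell: TRS23 and TRS120 rose by 0.15 and 0.13, and TCA17 fell by 0.30 (SE 0.06, adjusted p = 0.011). SEC18 and TCA17 kept their calls in all 16 alternatives, whereas TRS23 lost its call in 10, VTI1 in 9 and TRS120 in 7. TCA17 had 9.16, 9.02 and 9.19 in the deletion, against 9.45, 9.34 and 9.48 in the wild type.

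Clathrin and late-Golgi adaptors had 3 of 8 higher (37.5%, against 17.5% of all tested probe sets) and 0 lower by limma (6 and 0 at an unadjusted p under 0.05). Beside GGA1 and CHC1 the third was APM1 of the AP-1 adaptor, at 0.15. Among other cargo receptors and retrieval proteins 2 of 12 rose, EMP46 and ERD2, the receptor that returns ER proteins from the Golgi (0.20, SE 0.042, adjusted p = 0.0124). Of 16 exocyst and plasma membrane fusion genes 3 rose, SEC1 by 0.22, SEC15 by 0.14 and SSO1 by 0.13, with SEC15 losing its call in 8, SSO1 in 7 and SEC1 in 3 of the 16 alternatives. Of 16 Rab regulators and Golgi matrix genes 2 rose, YIP3 and the golgin COY1 (0.15). The Dsl1 tether with its ER SNAREs (6 genes), the ER packaging chaperones (4) and the Arf regulators (8) gave 0 calls by limma, with 1, 0 and 0 genes at an unadjusted p under 0.05. For comparison, 5 of 10 genes of the unfolded protein response rose by limma (50%, against 17.5% of all tested probe sets) and 0 fell. The largest rise was that of the disulfide isomerase EUG1, 0.32 (SE 0.044, adjusted p = 0.00257). The other 5, KAR2, HAC1, ERO1, LHS1 and SCJ1, had changes of 0.03 to 0.13 and did not pass the threshold (adjusted p = 0.141 to 0.616).

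**Figure D4:**
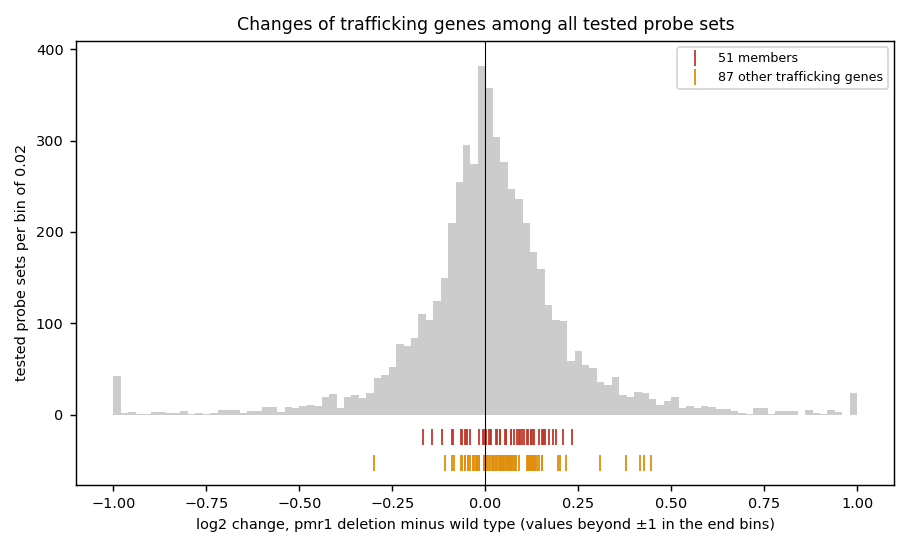
Histogram of the log2 change (x axis, pmr1 deletion minus wild type) of all 5498 tested probe sets, in bins of 0.02 with values beyond ±1 placed in the end bins. Ticks below it mark the 51 members (red), from -0.17 to 0.23, and the 87 other trafficking genes (orange), from -0.30 to 0.44.

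**Figure D5:**
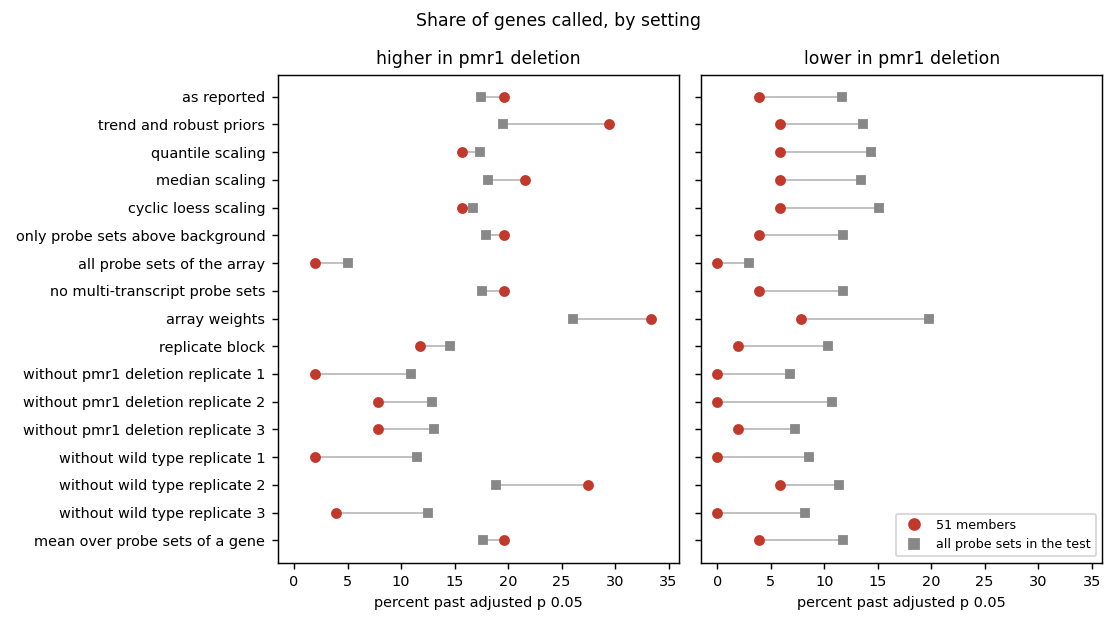
Percent of the 51 members (red circles) and of all probe sets in the test (grey squares) past an adjusted p of 0.05, higher (left) and lower (right) in the pmr1 deletion, as reported and under 16 alternatives (y axis). The members' share of higher genes lies above that of all probe sets in 7 of the 16, and their share of lower genes lies below it in all 16. The alternatives are refits of the same 6 arrays.

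The comparison of shares held unequally across the alternatives. The members' share of higher genes exceeded that of all probe sets in 7 of 16, and their share of lower genes was smaller in 16 of 16. Their median change exceeded the median of all probe sets in 16 of 16. The alternatives are refits of the same 6 arrays and are not independent. Without deletion replicate 1 or 2 or wild-type replicate 1 or 3, 0 members were lower, as when all probe sets of the array were tested. In those fits the members' share of lower genes could not be the larger one. With the filter on dim probe sets, no multi-transcript probe sets or the mean over probe sets, the counts stayed at 10 and 2. No test of the members against other genes was made.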

How the data were processed

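The deposited table holds log2 values for 10928 probe sets on 6 arrays (0 missing values, 0 columns of other samples), made by the authors with GCOS, RMA and limma per the submitters' processing notes, which name no versions. RMA summaries understate large differences and those of dim genes. The array carries S. cerevisiae and S. pombe probe sets. Tested were the 5498 whose annotated gene is in the R64 gene table, which served for current symbols and systematic names. The 1746 named S. pombe probe sets gave the background, their 95th percentile on each array (4.18 to 4.31). No source used here states the array's genome build, so no coordinates are printed.

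The groups, taken from the titles, were compared with limma 3.58.1 in R 4.3.3 (lmFit, eBayes, two-sided, Benjamini-Hochberg over all tested probe sets, threshold 0.05) and a gene with several probe sets was read from the brightest. Where a gene lay below background on every array of a group, the bound used, per array, the higher of background and its own value. The number of arrays limits the precision, and the labels give no batch. Whether replicate numbers pair the samples is not known. Deviations of same-numbered arrays correlated at -0.14, 0.00032 and 0.08, and those of differently numbered arrays at -0.14 to 0.15. With 3 arrays per group these values cannot decide it.

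Alternatives were another variance model, 3 scalings, other sets of probe sets, array weights, a replicate block and each array left out. Named were PMR1, all members past the threshold, the member with the largest change in each role, the paralog pairs and up to 3 called genes of each other list. VPS45, the uncalled genes of the unfolded protein response, and the mating-type and other uncalled members named beside the counts fall outside that rule. They were picked with their values known. The members and lists were chosen with earlier results of these data known. Figures used matplotlib 3.10.9 (Python 3.11.15).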

Additional observations from a re-analysis of the deposited data

How the results depend on the processing

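Of the 12 called members only SFB2 kept its call in all 16 alternatives, where its log2 change was 0.20 to 0.26 and its adjusted p at most 0.0341. The 10 higher and 2 lower members became 17 and 4 with array weights, and 1 and 0 when all 10928 probe sets were tested together (14 and 3 at an unadjusted p under 0.05), where control, S. pombe and unnamed probe sets enter the adjustment. With the replicate number as a block they became 6 and 1, against 14.6% and 10.4% of all tested probe sets. Whether the numbers pair the samples is not known. Leaving out each array in turn gave 1 to 14 higher and 0 to 3 lower members, with a median change of 0.05 to 0.08. The other alternatives (trend with robust priors, 3 scalings, a filter on dim probe sets, no multi-transcript probe sets, the mean over probe sets of a gene) kept both counts within 1.5 times. Over all probe sets the counts, 963 higher and 642 lower, became 1434 and 1087 with array weights, 548 and 325 when every probe set was tested, and 599 to 1041 and 373 to 629 without 1 array. PMR1 kept its call throughout. Changes near 0 turned sign: ARF1 was at -0.011 with quantile scaling and -0.011 with array weights, and GEA1 at -0.014 with quantile scaling, -0.0081 with cyclic loess and -0.0059 with array weights. Without 1 array, ARF1 ranged from -0.013 to 0.031, GEA1 from -0.041 to 0.056, GEA2 from -0.071 to 0.028 and the GEA1 to GEA2 ratio from -0.019 to 0.086. The causes of these moves were not tested. The number of arrays, 3 against 3, limits the precision, and a member without a call is not shown to be unchanged.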
